A study of Mus musculus with 10 samples.

Results

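Kinesins are motor proteins that walk along microtubules, and their genes were followed here in neural stem cells with Atrx deleted or intact. The genes were picked by symbol alone: a name made of Kif, a number and optional lower-case letters, or Kifc and a number. This rule took 42 of the 21101 genes in the deposited table. By known role, 13 are motors of mitosis and cytokinesis, 17 are motors of transport and of neurons, and 10 are other motors, of cilia, signalling or little known roles. The remaining 2 encode no motor: Kif1bp encodes a kinesin binding protein, and Kif16bos is a transcript from the opposite strand of Kif16b. The annotated positions of Kif16b (chr2:142617474-142901531) and Kif16bos (chr2:142902965-142903572) do not overlap. Whether the counting used strand is not given.

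All cells were mouse neural stem cells without p53 that had been transduced with IDH1(R132H), the mutant isocitrate dehydrogenase of gliomas, so the control lines carry both changes too. Atrx, a chromatin remodeller, was deleted in 3 lines (mA16d#4, mA19d#4 and mA19d#7), and 2 lines were controls (Control NSC#1 and Control NSC#2). Each line gave 1 library after 8 days in differentiation medium, which is neural basal medium with B27 and no growth factors, and 1 in proliferation medium, to which EGF and bFGF (20 ng/ml) were added. The groups were thus Atrx-deleted differentiation (3 libraries), control differentiation (2), Atrx-deleted proliferation (3) and control proliferation (2), and values below follow the order of lines just given. Neither how the deletion was made nor whether a line is a single clone is given in the sources used here. The names mA19d#4 and mA19d#7 share a stem, and whether these lines have a common origin is not given either. The tests treat them as independent.

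A mitotic kinesin is made mainly when a cell divides: some slide spindle microtubules apart or cluster their ends, some shorten microtubules at the chromosomes, and others bundle the midzone where the daughter cells separate. Transport kinesins carry vesicles, organelles and RNA along microtubules that persist between divisions, and several of them are abundant in axons. Neural stem cells deprived of growth factors usually leave the cell cycle and turn into neurons or glia. Levels are given in TPM, the usual read-based measure scaled to transcript length and library size. Differences are log2 differences of TPM + 1. A gene was called where limma gave a Benjamini-Hochberg adjusted p below 0.05 over the 15660 genes tested, which had at least 1 TPM in at least 2 libraries. Of the 42 genes 39 were tested, namely 12 mitotic, 17 transport and 9 other motors and Kif1bp. Kif2b, Kif12 and Kif16bos were not, and Kif2b, a mitotic microtubule depolymerase, did not exceed 0.517 TPM in any library, Kif12 1.81 TPM and Kif16bos 0.14 TPM.

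Atrx itself was at 54.4, 47.2 and 54 TPM in Atrx-deleted differentiation libraries, against 128 and 127 TPM in control differentiation libraries, and at 71.6, 42.8 and 74 TPM in Atrx-deleted proliferation libraries, against 163 and 149 TPM in control proliferation libraries. Atrx RNA was thus lower in every Atrx-deleted library but remained in each of them, and a value over the whole gene does not measure the deleted part. Stem cell markers were present throughout, with Sox2 at 364 to 705 TPM and Nes at 245 to 753 TPM over the 10 libraries. Of neuron markers, Rbfox3 did not exceed 12.7 TPM and Stmn2 stayed under 1 TPM, while Syn1 lay between 13.2 and 26.2 TPM, Tubb3 between 50.1 and 372 TPM and Dcx between 2.28 and 53.0 TPM. The library labelled mA19d#7 in differentiation medium stood apart. Over the tested genes its Spearman correlation was highest with mA16d#4 in proliferation medium (0.957), against 0.926 with its own line in proliferation medium, and it held Gfap, an astrocyte gene, at 1411 TPM, against 1.57 to 79.5 TPM in the other 9 libraries. It also held Foxj1, a factor of cells with motile cilia, at 157 TPM, against 8.19 to 62.2 TPM in the other 9 libraries. Gfap and Foxj1 are single genes of longer marker lists and do not name a cell type. The 9 motile cilia markers summed to 56.9 to 199 TPM in Atrx-deleted and 110 to 118 TPM in control differentiation libraries. The 8 astrocyte markers summed to 2533 to 4538 TPM and 8173 to 9109 TPM in the same groups. Results are therefore also given without the library labelled mA19d#7 in differentiation medium. P-values measure the spread between these lines, and in RNA of whole cultures fewer cells of a type and less RNA per cell cannot be told apart.

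The heat map of the 39 tested genes shows the mitotic kinesins shifting together as a block. In each library the median log2(TPM + 1) of the transport genes was subtracted from that of the mitotic genes. The result was -1.85 in mA16d#4, -0.87 in mA19d#4 and -0.85 in mA19d#7 in differentiation medium, against -2.81 and -2.74 in the control lines in the same medium. In proliferation medium it was -0.69, -0.18 and -0.83 in the Atrx-deleted lines, against -0.79 and -1.46 in the control lines. Both control differentiation libraries thus had the widest gaps of the 10. Within groups the mitotic medians also scattered more, with a pooled SD of 0.427, against 0.146 for the transport medians (6 residual degrees of freedom each).

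**Figure D1:**
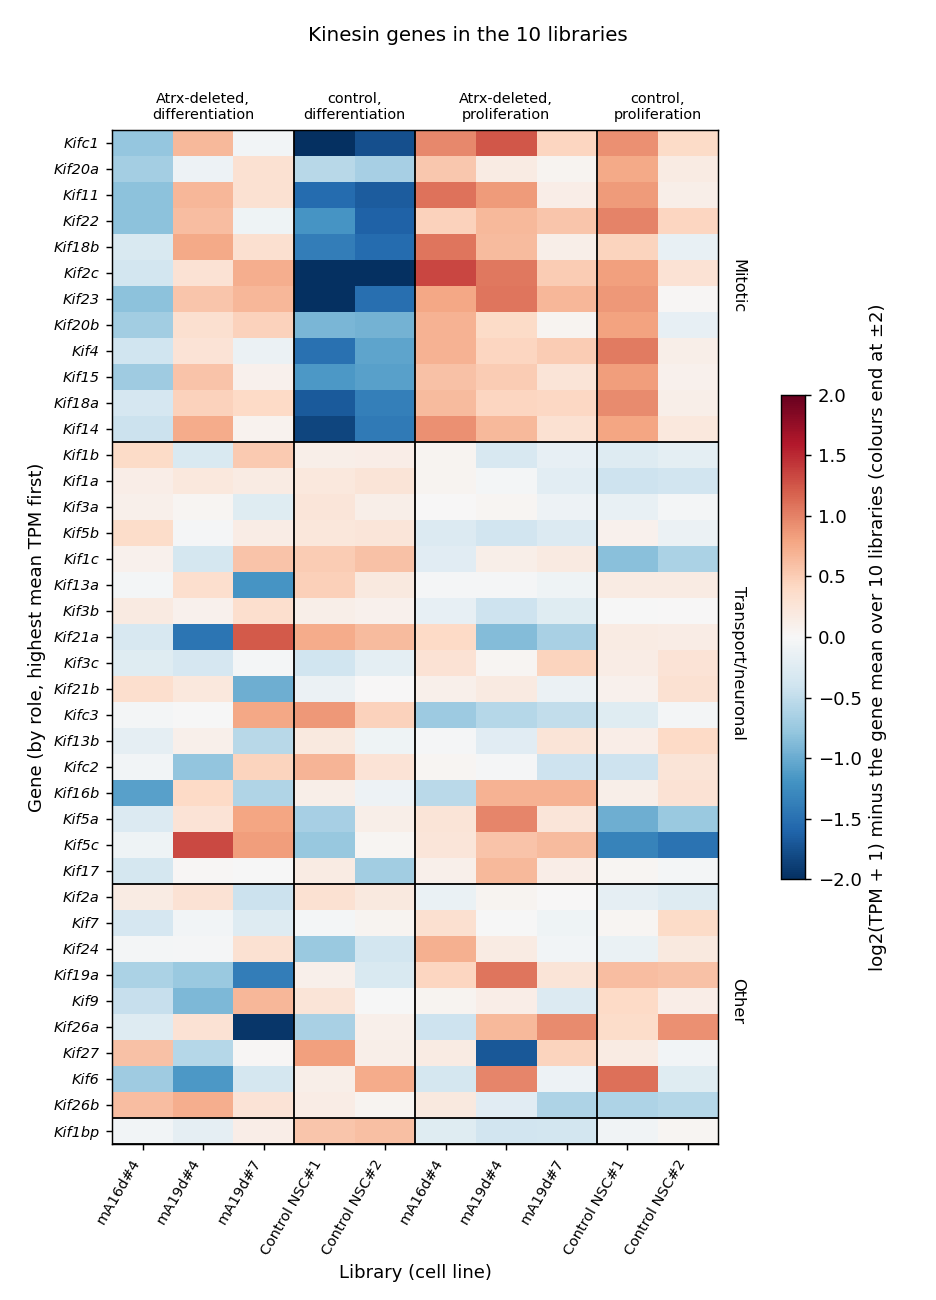
Levels of the 39 tested kinesin genes (vertical axis, by role) in the 10 libraries (horizontal axis, by group), coloured by log2(TPM + 1) minus the gene's mean, with colours ending at 2 and -2. The mitotic block is bluest in both control differentiation libraries, and the transport block shows no such step.

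In differentiation medium, Atrx-deleted lines held more mitotic kinesin RNA than control lines did. Limma called 6 of the 39 tested kinesin genes, all higher and all mitotic: Kif2c, Kif23, Kifc1, Kif14, Kif18b and Kif18a. Over all tested genes 1.55% were called higher and 1.33% lower, 2.89% in all. All 12 tested mitotic genes had positive differences, from 0.45 to 2.54 with a median of 1.67, while the median was -0.08 for the 17 transport genes, -0.36 for the 9 other motors and 0.02 for all tested genes. No transport or other motor was called.

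Kif2c, on mouse chromosome 4 (chr4:117159639-117182639 of GRCm38, the build also called mm10), encodes a microtubule depolymerase that corrects faulty attachments of chromosomes to the spindle. Its level was 14.8, 23.8 and 32.7 TPM in Atrx-deleted differentiation, 2.54 and 3.65 TPM in control differentiation, 50.6, 41.2 and 28 TPM in Atrx-deleted proliferation and 34.9 and 23.9 TPM in control proliferation libraries. The Atrx-deleted lines averaged 23.8 ± 8.95 TPM (SD, n = 3) in differentiation medium and the control lines 3.09 ± 0.789 TPM (SD, n = 2), with no overlap. The log2 difference of 2.54 (SE 0.36, adjusted p = 0.0104) was the largest of the 39. Overlap, here and below, is described in the same libraries that were tested and is no further test. The share of all tested genes without overlap was not counted.

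The kinesin-8 genes Kif18a and Kif18b, whose motors shorten the plus ends of spindle microtubules, were called. Kif18a (chr2:109280738-109341747), which damps the movements of aligned chromosomes, was at 11.5, 20.8 and 19.9 TPM in Atrx-deleted differentiation, 3.96 and 5.15 TPM in control differentiation, 23.4, 20.2 and 20.2 TPM in Atrx-deleted proliferation and 29.7 and 16.1 TPM in control proliferation libraries. Kif18b (chr11:102905529-102925124), which acts on the astral microtubules that reach the cell edge, was at 21.9, 47.1 and 34.6 TPM in Atrx-deleted differentiation, 9.91 and 8.8 TPM in control differentiation, 58.8, 43.3 and 29.9 TPM in Atrx-deleted proliferation and 37.6 and 24.7 TPM in control proliferation libraries. In differentiation medium the lowest Atrx-deleted library lay above the higher control library for both genes. The log2 difference was 1.69 (SE 0.329, adjusted p = 0.0282) for Kif18a and 1.72 (SE 0.355, adjusted p = 0.0352) for Kif18b.

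Kif14 and Kif23 serve cytokinesis. Kif23 (chr9:61915905-61946774) is the motor of centralspindlin, which bundles midzone microtubules, and was at 9.86, 27.3 and 29.5 TPM in Atrx-deleted differentiation, 2.91 and 5.74 TPM in control differentiation, 32, 39.6 and 29.3 TPM in Atrx-deleted proliferation and 34.2 and 18.6 TPM in control proliferation libraries. Kif14 (chr1:136466343-136531511), which helps recruit citron kinase to the midbody, was at 6.73, 16.4 and 9.91 TPM in Atrx-deleted differentiation, 1.93 and 2.9 TPM in control differentiation, 18.8, 15.4 and 11.9 TPM in Atrx-deleted proliferation and 17.1 and 11.1 TPM in control proliferation libraries. For both genes mA16d#4 was the lowest Atrx-deleted line in differentiation medium, and it was still above both controls. The log2 difference was 2.04 (SE 0.458, adjusted p = 0.0447) for Kif23 and 1.75 (SE 0.384, adjusted p = 0.0417) for Kif14.

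Kifc1 (chr17:33875659-33890661), a motor that walks towards minus ends and focuses spindle poles, was at 25.7, 71 and 43.1 TPM in Atrx-deleted differentiation, 10.5 and 12.6 TPM in control differentiation, 88.2, 107 and 60.7 TPM in Atrx-deleted proliferation and 84.8 and 58.6 TPM in control proliferation libraries. Its log2 difference in differentiation medium was 1.82 (SE 0.38, adjusted p = 0.0362), again without overlap of the groups. Reads of Kifc1 may be shared with its close copy Kifc5b, which the symbol rule leaves out. Kifc5b was at 13.3, 28.2 and 21.2 TPM in Atrx-deleted and 3.65 and 7.99 TPM in control differentiation libraries.

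**Figure D2:**
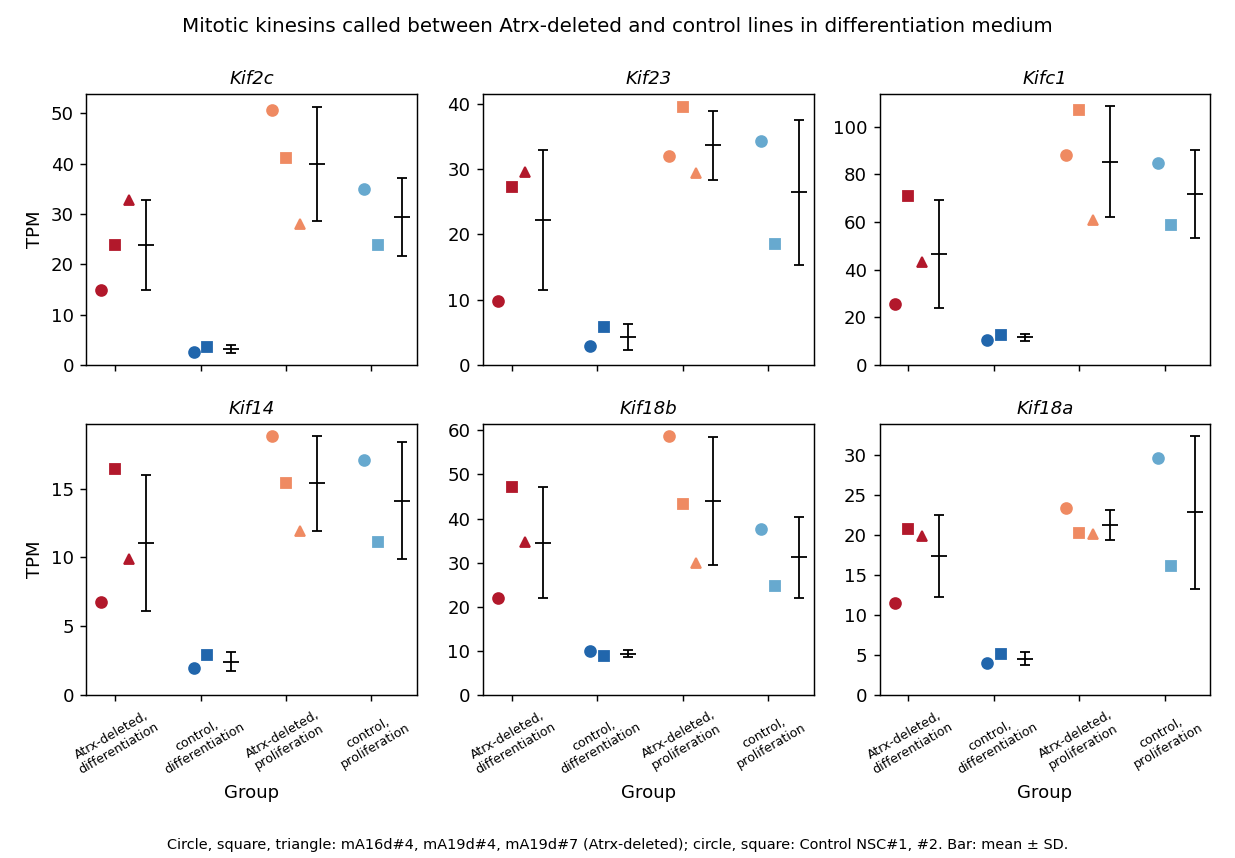
TPM (vertical axes, from 0) of the 6 mitotic kinesins called in differentiation medium in each library, by group (horizontal axis), with 1 symbol per line and bars for mean ± SD. In each panel the 3 Atrx-deleted differentiation points lie above both control differentiation points, and these genes were called on the same libraries.

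The other 6 tested mitotic genes missed the threshold. Kif11 (chr19:37376403-37421859), the motor that pushes spindle poles apart, was at 23.4, 67.1 and 52.3 TPM in Atrx-deleted differentiation, 13.8 and 12.6 TPM in control differentiation, 89.7, 76.3 and 46.2 TPM in Atrx-deleted proliferation and 76.8 and 45.5 TPM in control proliferation libraries, and its log2 difference in differentiation medium was 1.65 (SE 0.424, adjusted p = 0.0674). Kif20a, which carries the chromosomal passenger complex to the midzone, was the exception among the mitotic genes: at 32, 48.4 and 64.3 TPM in Atrx-deleted differentiation, 35 and 32.5 TPM in control differentiation, 76, 58.1 and 54 TPM in Atrx-deleted proliferation and 88.1 and 57.9 TPM in control proliferation libraries, its differentiation groups overlapped. Its lowest Atrx-deleted library, mA16d#4, lay just below both controls. The differences of the other four, with adjusted p-values in brackets, were 1.30 for the chromosome arm motor Kif22 (0.0829), 1.18 for the chromosome motor Kif4 (0.0799), 1.10 for Kif15, which helps keep the spindle bipolar (0.134), and 0.96 for the cytokinesis motor Kif20b (0.208).

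The calls in differentiation medium rest on few libraries, and calls over all genes moved as well when one was left out. Without the library labelled mA19d#7 6 kinesins were called, against 5.97% of all tested genes, and 5 of the 6 were among those above: Kif23 was lost and Kif1bp, at a lower level, was gained. Without mA16d#4 in that medium 9 mitotic genes were called (2.63% of all genes). Without mA19d#4 in proliferation or in differentiation medium only Kif2c was called (1.67% and 2.21%). Without either control proliferation library Kif2c and Kif18a were called (1.35% each time). Without Control NSC#1 or Control NSC#2 in differentiation medium no kinesin was called, and few other genes were (0.0702% and 0.192%). A fit to the differentiation libraries alone also called no kinesin (0.0128%).

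Promoter windows were read for the called mitotic motors that have a match near their start, and for Kif1c, a transport motor called in a comparison below, as a contrast. RefSeq windows of GRCm38.p6, 250 bases before to 50 after a start, were found for 33 of the 42 genes. In these windows 6 motifs were searched on both strands, all of them and the windows shown chosen after the values were seen: TTTGAA, the core of the cell cycle homology region, its variant TTCGAA, the CCAAT box, and TTTGGCGC, TTTCCCGC and TTTCGCGC, forms of the E2F motif. TTTGAA was in 10 of 12 mitotic genes with a window, 1 of 11 transport genes (Kif1a) and 2 of 9 other motors, against 20.2% of the 27025 genes with a window. CCAAT was in 8 of 12 mitotic, 3 of 11 transport and 4 of 9 other motor genes, against 41.1%. TTTGGCGC was in 2 mitotic genes, Kif15 and Kif18a, against 0.585%, TTCGAA was in Kif24 alone, against 1.8%, and neither other motif was in the window of a motor gene (1.24% and 0.374% of all genes). A match is a description of letters and not a binding site. The windows below run from 120 bases before to 30 after the start, 5′ to 3′ on the gene's strand, with each TTTGAA match on either strand (TTCAAA where it lies on the other one) in capitals. They lie at chr11:102925095-102925244, minus strand (Kif18b), chr9:61946770-61946919, minus strand (Kif23), chr17:33890604-33890753, minus strand (Kifc1), chr19:37376262-37376411, plus strand (Kif11), chr7:127042391-127042540, minus strand (Kif22), chrX:100625945-100626094, plus strand (Kif4) and chr11:70700428-70700577, plus strand (Kif1c).
Kif18b: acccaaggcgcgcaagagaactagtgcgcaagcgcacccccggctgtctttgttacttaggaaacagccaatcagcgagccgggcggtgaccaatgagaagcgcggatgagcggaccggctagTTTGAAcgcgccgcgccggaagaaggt
Kif23: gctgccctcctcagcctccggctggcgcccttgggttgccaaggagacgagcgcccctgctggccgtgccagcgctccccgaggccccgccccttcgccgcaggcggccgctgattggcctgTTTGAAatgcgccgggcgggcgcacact
Kifc1: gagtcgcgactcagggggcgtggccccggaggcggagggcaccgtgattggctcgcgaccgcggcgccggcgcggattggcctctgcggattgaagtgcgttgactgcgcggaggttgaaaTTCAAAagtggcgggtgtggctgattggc
Kif11: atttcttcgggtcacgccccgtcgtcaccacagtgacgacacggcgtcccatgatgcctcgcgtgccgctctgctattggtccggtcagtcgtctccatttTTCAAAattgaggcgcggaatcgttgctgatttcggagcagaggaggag
Kif22: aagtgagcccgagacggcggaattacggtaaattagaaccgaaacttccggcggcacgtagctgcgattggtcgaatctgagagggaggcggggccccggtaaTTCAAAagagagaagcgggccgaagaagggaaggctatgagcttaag
Kif4: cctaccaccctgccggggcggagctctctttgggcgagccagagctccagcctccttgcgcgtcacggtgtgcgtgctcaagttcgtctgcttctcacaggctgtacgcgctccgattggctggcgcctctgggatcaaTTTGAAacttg
Kif1c: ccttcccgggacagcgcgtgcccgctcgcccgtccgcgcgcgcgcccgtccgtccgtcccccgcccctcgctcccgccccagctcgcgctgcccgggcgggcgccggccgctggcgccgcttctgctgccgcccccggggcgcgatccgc
In Kif14 and Kif2c, which also have the motif, the only match lies farther upstream, 228 and 103 bases before the start, and these windows are not shown. Starts in RefSeq can differ from the gene positions given here. The start used for Kif2c lies well inside its gene position, another reason that its window is not shown. The whole Kif4 window shown also lies inside its gene position. Matches counted for these genes may therefore lie inside the gene. Among the mitotic genes with a window, Kif18a and Kif2b lack the motif. Genes without a window were Kif20a, Kif13b, Kif21b, Kif5a, Kif5b, Kifc2, Kifc3, Kif19a and Kif1bp.

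In the control lines, mitotic kinesins were lower in differentiation than in proliferation medium. Limma called 11 of the 39: 9 mitotic genes were lower, and the transport motors Kif1c and Kif1a were higher. Over all tested genes 2.56% were called lower and 1.95% higher, 4.51% in all. All 12 tested mitotic genes had negative differences, with a median of -2.07, and 12 of 17 transport genes had positive ones, with a median of 0.28. The comparison uses the same control differentiation libraries as the one between genotypes in that medium, so the 2 sets of values are not independent. The log2 difference was -2.88 for Kif2c (SE 0.395, adjusted p = 0.0062), -2.52 for Kifc1 (adjusted p = 0.0119), -2.36 for Kif23 (0.0292) and -2.13 for Kif14 (0.0224).

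The spindle motors Kif22, Kif11 and Kif4, which missed the threshold between genotypes, were called here. Kif22 (chr7:127027729-127042471), at 18.6, 51.7 and 31.5 TPM in Atrx-deleted differentiation, 14.3 and 10.3 TPM in control differentiation, 46.3, 53.2 and 49.5 TPM in Atrx-deleted proliferation and 67.3 and 45.6 TPM in control proliferation libraries, fell by 2.11 (SE 0.392, adjusted p = 0.0189). Kif11 fell by 2.08 (SE 0.465, adjusted p = 0.0353). Kif4 (chrX:100625737-100727214), at 11.8, 19.5 and 14.6 TPM in Atrx-deleted differentiation, 5.06 and 7.19 TPM in control differentiation, 26.6, 21.9 and 23 TPM in Atrx-deleted proliferation and 34 and 17.4 TPM in control proliferation libraries, fell by 1.85 (SE 0.352, adjusted p = 0.0199). Reads of Kif4 may be shared with the pseudogene Kif4-ps. Kif18a and Kif18b fell too, with log2 differences of -2.05 for Kif18a (adjusted p = 0.0149) and -1.61 for Kif18b (adjusted p = 0.0462). Each of these genes, called on the same libraries, was lower in both control differentiation libraries than in either control proliferation library. The 3 mitotic genes not called were Kif15 (-1.58, adjusted p = 0.0552), Kif20a (-1.06, 0.0885) and Kif20b (-1.25, 0.132).

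Line names pair the libraries, and with the line as a fixed block 6 of the 11 calls passed, against 3.11% of all tested genes: Kif2c, Kifc1, Kif23, Kif22, Kif18a and Kif1c. Here too calls over all genes moved with the kinesins when a library was left out. No kinesin was called without Control NSC#1 in proliferation medium (0.0383% of all genes) or without Control NSC#1 or Control NSC#2 in differentiation medium (0.0639% and 0.0958%), and 4 were called without Control NSC#2 in proliferation medium (0.977%). Without the library labelled mA19d#7 15 were called (9.24%).

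Within single lines, the response of the mitotic motors differed. The median log2 difference of the 12 genes between media was -1.37 in mA16d#4, -0.12 in mA19d#4 and -0.01 in mA19d#7, against -2.46 in Control NSC#1 and -1.51 in Control NSC#2. All 12 genes were lower in differentiation medium in mA16d#4, 8 in mA19d#4 and 6 in mA19d#7, against 12 in each control line. Of all 15660 tested genes 7315 to 8073 were lower, depending on the line. The summed TPM of the 13 mitotic genes in differentiation medium was 34.8% of that in proliferation medium in mA16d#4, 84.0% in mA19d#4 and 95.7% in mA19d#7, against 20.5% and 33.2% in the control lines. The value of mA19d#7 rests on the library that stood apart, and whether that library's label is right was not tested.

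**Figure D3:**
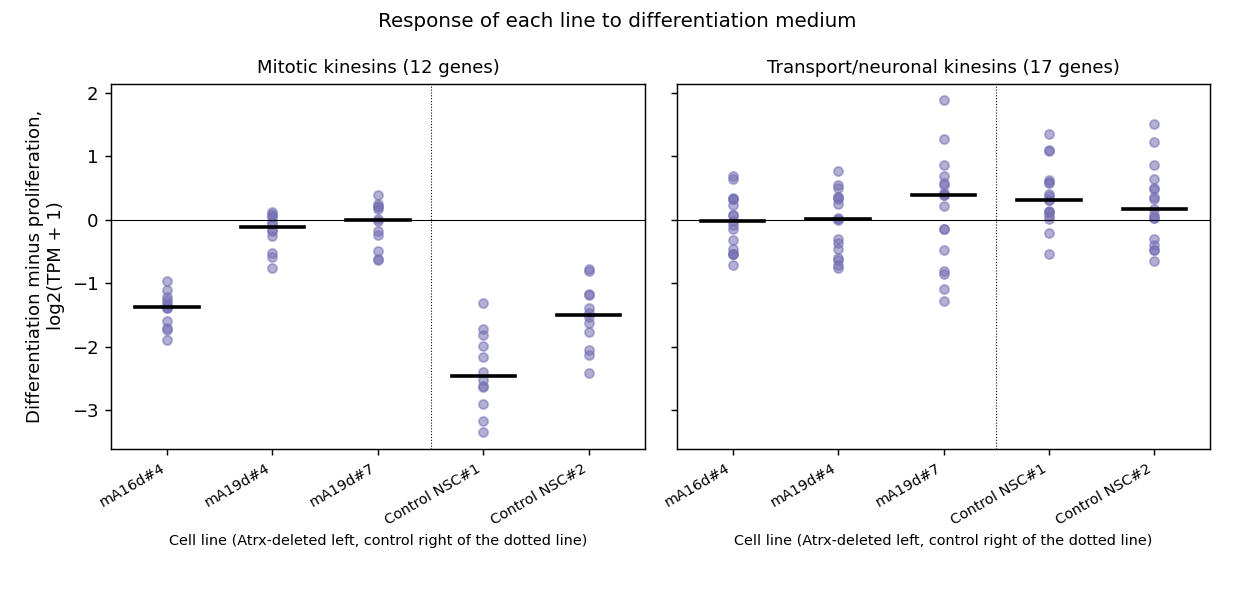
Differentiation minus proliferation log2(TPM + 1) (vertical axis) of each mitotic kinesin (left panel) and each transport kinesin (right panel) in the 5 lines (horizontal axis), with bars at the medians. The mitotic points lie below 0 throughout in mA16d#4 and both control lines and around 0 in mA19d#4 and mA19d#7, while the transport points straddle 0 in every line.

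Transport kinesins held the highest levels of the family and had medians closer to 0 in the comparisons between media and in differentiation medium. Kif1b, a carrier of mitochondria and synaptic vesicle precursors, was the most abundant, at 250.4, 155 and 276 TPM in Atrx-deleted differentiation, 209 and 209 TPM in control differentiation, 199, 154 and 172 TPM in Atrx-deleted proliferation and 160.2 and 167 TPM in control proliferation libraries. Kif3a, a subunit of the heterotrimeric kinesin that also serves cilia, was at 117, 112 and 91.8 TPM in Atrx-deleted differentiation, 129.6 and 119 TPM in control differentiation, 110.2, 112 and 102 TPM in Atrx-deleted proliferation and 97.8 and 106 TPM in control proliferation libraries. Neither was called in any comparison, and in both genes the libraries of the groups lay close together apart from high Kif1b in mA16d#4 and mA19d#7 in differentiation medium.

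Kif1a (chr1:93015464-93101951), a carrier of synaptic vesicle precursors, was at 168, 178 and 173 TPM in Atrx-deleted differentiation, 178 and 183 TPM in control differentiation, 159.6, 149.5 and 132 TPM in Atrx-deleted proliferation and 115 and 118 TPM in control proliferation libraries. It rose in the control lines by 0.63 (SE 0.151, adjusted p = 0.0442). Kif1c (chr11:70700548-70731964), a motor of vesicles and integrins, was at 93.5, 69 and 131 TPM in Atrx-deleted differentiation, 126 and 133 TPM in control differentiation, 74.7, 95.3 and 99.5 TPM in Atrx-deleted proliferation and 48.8 and 56.6 TPM in control proliferation libraries. It rose in the control lines by 1.28 (SE 0.268, adjusted p = 0.0271). Of 11 other settings that kept all lines, Kif1a was called in 8 and Kif1c in 9. Neither was called when limma was run without its mean-variance trend, where 3.58% of all tested genes were called. For both genes the control differentiation libraries lay above both control proliferation libraries. The Atrx-deleted lines differed among themselves for Kif1c, with a higher level in differentiation medium in mA16d#4 and mA19d#7 and a lower one in mA19d#4. The summed TPM of the 17 transport genes in differentiation medium was 111%, 104% and 127% of that in proliferation medium in the Atrx-deleted lines, against 133% and 124% in the control lines.

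The neuronal heavy chains Kif5a and Kif5c, singled out after their values were seen, were expressed at low levels. Kif5c was at 5.8, 17.1 and 11.9 TPM in Atrx-deleted differentiation, 3.29 and 6.42 TPM in control differentiation, 7.52, 9.66 and 10.1 TPM in Atrx-deleted proliferation and 1.85 and 1.6 TPM in control proliferation libraries. Kif5a was at 6.34, 9.67 and 14.4 TPM in Atrx-deleted differentiation, 4.58 and 8.67 TPM in control differentiation, 9.65, 16.4 and 9.47 TPM in Atrx-deleted proliferation and 3.49 and 4.31 TPM in control proliferation libraries. In proliferation medium every Atrx-deleted library was above both controls for each, but the differences of 1.88 (SE 0.43, adjusted p = 0.0969) and 1.35 (SE 0.404, adjusted p = 0.187) missed the threshold. Kif21a, a motor that restrains microtubule growth, also singled out, varied between lines, at 42.8, 18.9 and 128 TPM in Atrx-deleted differentiation, 90.6 and 84.2 TPM in control differentiation, 71, 29.1 and 34 TPM in Atrx-deleted proliferation and 60.7 and 59.6 TPM in control proliferation libraries. Its highest and lowest levels were both in Atrx-deleted differentiation libraries, the highest in the one labelled mA19d#7.

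The remaining transport genes are given by their ranges. Kif5b, the heavy chain made in most tissues, lay between 77.5 and 131 TPM over the 10 libraries. Kif3b, the usual partner of Kif3a, lay between 45.9 and 77.9 TPM, and Kif3c, a related subunit, between 45.4 and 81.8 TPM. All of these were present in every library. The endosome motors Kif13a and Kif16b lay between 27.7 and 89.3 TPM and between 5.02 and 19.7 TPM, and Kif13b between 10.2 and 20.5 TPM. Kifc3, a minus-end motor, lay between 19.1 and 59.3 TPM, Kifc2 between 7.86 and 23.5 TPM, Kif21b between 29.2 and 74 TPM and Kif17, a dendritic motor, between 1.69 and 5.81 TPM. None of these genes was called in any comparison.

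Among the other motors Kif2a, a depolymerase of neurites and spindles, was the most abundant, at 44.1, 48.2 and 28.9 TPM in Atrx-deleted differentiation, 48.7 and 44.9 TPM in control differentiation, 35.6, 40.7 and 39.4 TPM in Atrx-deleted proliferation and 34.7 and 32.8 TPM in control proliferation libraries. Kif7, a regulator of Hedgehog signalling in cilia, was at 16.6, 20.4 and 17.6 TPM in Atrx-deleted differentiation, 20.8 and 22.2 TPM in control differentiation, 26.7, 21.2 and 20.1 TPM in Atrx-deleted proliferation and 21.9 and 28 TPM in control proliferation libraries. None of the 9 tested was called in any comparison. Kif24, which regulates centrioles and ciliation, was at 10.1, 10.3 and 13.2 TPM in Atrx-deleted differentiation, 5.81 and 7.85 TPM in control differentiation, 17.7, 11.9 and 10.05 TPM in Atrx-deleted proliferation and 9.4 and 12.1 TPM in control proliferation libraries. It was highest in mA16d#4 in proliferation medium and lowest in Control NSC#1 in differentiation medium. Kif6, Kif9 and Kif26b lay between 0.324 and 5.3 TPM, between 1.87 and 7.42 TPM and between 0.368 and 2.5 TPM. Single values stood out after the data were seen: Kif26a was at 0.0219 TPM in mA19d#7 in differentiation medium, against 1.52 to 6.61 TPM elsewhere, and Kif27 was at the lowest value of the table in mA19d#4 in proliferation medium. Kif19a and Kif1bp were singled out in the same way. Kif19a, a motor that shortens cilia, was at 4.67, 4.24 and 2.37 TPM in Atrx-deleted differentiation, 8.44 and 6.13 TPM in control differentiation, 10.9, 17.4 and 9.5 TPM in Atrx-deleted proliferation and 12.5 and 12.2 TPM in control proliferation libraries, lower in differentiation medium in each of the 5 lines but not past the threshold in any comparison. Kif1bp, which binds several kinesins, was at 106, 96.9 and 120.3 TPM in Atrx-deleted differentiation, 161 and 167 TPM in control differentiation, 92.4, 83.9 and 85.3 TPM in Atrx-deleted proliferation and 105 and 114 TPM in control proliferation libraries, and its difference between genotypes in differentiation medium, -0.61 (SE 0.145, adjusted p = 0.053), just missed the threshold.

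Between genotypes in proliferation medium limma called none of the 39 kinesin genes, against 0.46% of all tested genes. At an unadjusted p below 0.05 there were 4, all transport motors and all higher in the Atrx-deleted lines (Kif5c, Kif5a, Kif1c and Kif1a), against 6.84% of all genes higher at that p. The mitotic median was 0.09 and the transport median 0.04. Between media in the Atrx-deleted lines none was called, against 0.083% of all genes, and 8 had an unadjusted p below 0.05, 4 of them higher (7.48% of all genes) and 4 lower (7.33%). All 12 mitotic genes had negative differences there, with a median of -0.57, against 0.00 for transport genes. The mitotic median rests on line mA16d#4, without which it was -0.07, and over all left-out fits it ranged over -0.796 to -0.0689. No kinesin was called without the library labelled mA19d#7 in differentiation medium either, against 2.22% of all genes.

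The difference between the medium responses of the genotypes, Atrx-deleted minus control, was called for no kinesin, against 0.00639% of all genes. At an unadjusted p below 0.05 there were 10, of which 9 were mitotic and positive (3.7% of all genes were positive at that p), and Kif1c was negative (3.32%). The mitotic median was 1.45, with 12 of 12 positive, and the transport median was -0.31. The largest was Kif2c, at 2.13 (SE 0.509, adjusted p = 0.363), and Kif1c was at -1.20 (SE 0.346, adjusted p = 0.47). A different response in the Atrx-deleted lines was therefore not shown for any single kinesin, and the tests within each genotype do not replace that test.

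**Figure D4:**
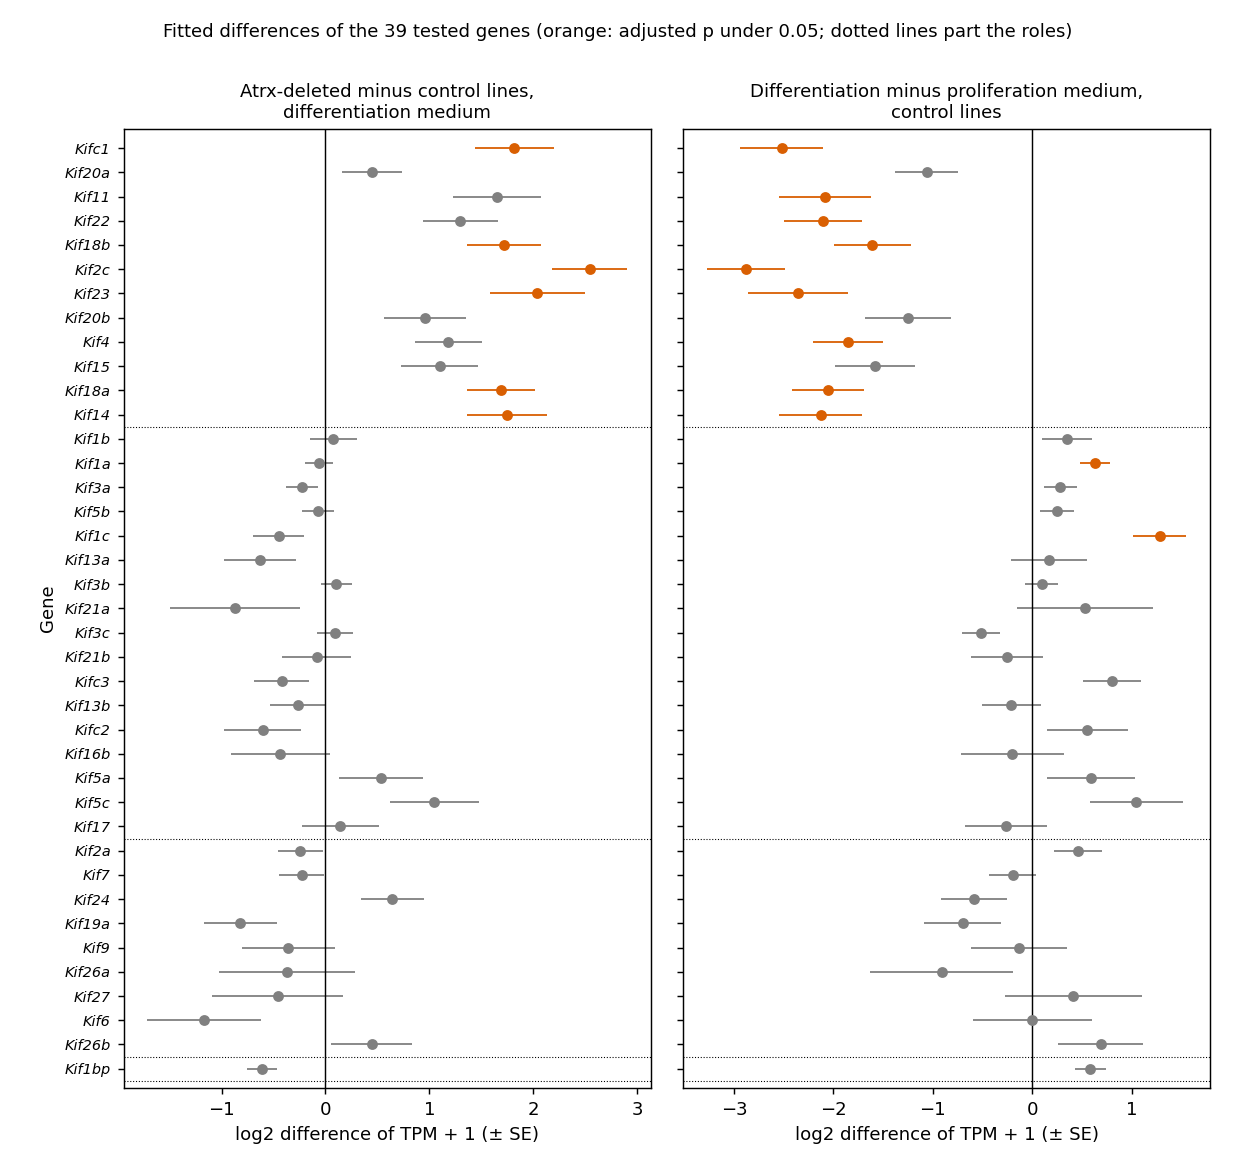
Fitted log2 differences of TPM + 1 with standard errors (horizontal axes) for the 39 tested genes (vertical axis, by role), Atrx-deleted minus control lines in differentiation medium on the left and differentiation minus proliferation medium in control lines on the right. Called genes are orange: 6 mitotic genes to the right of 0 on the left, and 9 mitotic genes to the left of 0 plus Kif1c and Kif1a to the right of it on the right.

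Partners of the motors were listed by known role, with earlier results of these data in view. The spindle list includes Cenpe, itself a kinesin that the symbol rule leaves out. The adaptor list includes Kif1bp, already counted among the tested members. Of 20 tested spindle partners, which work with the mitotic kinesins, 10 rose in Atrx-deleted over control lines in differentiation medium, against 1.55% of all tested genes, among them Nusap1 (2.02, adjusted p = 0.0206), Tpx2 (1.98, 0.0362) and Hmmr (1.94, 0.0396), which organise spindle microtubules. Their median was 1.78, against 0.02 for all genes. In the control lines 14 of the 20 fell in differentiation medium, against 2.56% of all tested genes, with a median of -2.16, among them the midzone protein Prc1 (-2.82, 0.0133), the checkpoint kinase Bub1b (-2.68, 0.00993) and the mitotic kinase Plk1 (-2.59, 0.014). Of 23 measured cargo adaptors and light chains only Arl8a was called, in 1 comparison. It is a lysosome GTPase that recruits kinesins, and it rose in control lines by 0.81 (adjusted p = 0.0422), against 1.95% of all tested genes. None of 22 genes of dynein and dynactin, the motor complex that walks the other way, was called. At most 4 had an unadjusted p below 0.05 in a comparison, 2 higher and 2 lower. That was so between genotypes in each medium and between media in Atrx-deleted lines. In those comparisons 1071 to 1620 of all 15660 tested genes were higher at that p and 1077 to 1545 lower.

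Cycling cell markers moved with the mitotic kinesins. Their summed TPM, over 8 genes, was 499 to 1074 in Atrx-deleted differentiation, 259 to 269 in control differentiation, 910 to 1147 in Atrx-deleted proliferation and 764 to 1208 in control proliferation libraries. Of these, 6 were called higher in Atrx-deleted lines in differentiation medium, against 1.55% of all tested genes, and 6 were called lower in the control lines there, against 2.56%. Like the kinesins, no spindle partner or cycling marker was called between genotypes without either control differentiation library or with only the compared groups fitted. The share of dividing cells in each culture, and its part in the kinesin differences, was not tested. Astrocyte markers, 8 genes, summed to 2533 to 4538 TPM in Atrx-deleted and 8173 to 9109 TPM in control differentiation libraries, and to 1788 to 3226 TPM in Atrx-deleted and 1360 to 1928 TPM in control proliferation libraries. Single astrocyte markers went both ways between genotypes in differentiation medium, 4 higher and 4 lower, with differences from -2.81 to 4.39. Only Apoe was called, lower in Atrx-deleted lines, against 1.33% of all tested genes called lower. Neuron markers, 10 genes with Stmn2 under 1 TPM in all libraries, summed to 488 to 1251 TPM in Atrx-deleted and 849 to 877 TPM in control differentiation libraries, and to 780 to 978 TPM in Atrx-deleted and 747 to 754 TPM in control proliferation libraries. They include Rbfox3, called lower, and Nefl, called higher, in Atrx-deleted lines in differentiation medium. Microglial markers, 7 genes with Cx3cr1 and Itgam under 1 TPM in all, summed to at most 18.2 TPM. Their part in the kinesin values was not tested either.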

How the data were processed

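RNA of 10 cultures was sequenced, 1 library per line and medium. The authors deposited log2 values for 21101 genes, which add up to 997524 TPM per library once back-transformed. Reads were aligned with STAR to mm10, per the submitters' processing notes. Versions, annotation, strand setting and depth: not given in the sources used here. Counting error can therefore not be stated. The sorted values are the same in all 10 libraries, with 1213 genes at the lowest value of -8, so the table was quantile-normalised before deposit and a change of total RNA cannot be seen.

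A limma model (version 3.58.1, in R 4.3.3, with a mean-variance trend) of 4 group means was fitted to log2(TPM + 1) of all libraries, with 6 residual degrees of freedom. A gene needed 1 TPM or more in 2 or more libraries to enter it. The pseudocount understates changes of genes with low levels. One spread per gene was shared by groups of unequal spread: the median SD was 0.353 and 0.264 in the Atrx-deleted differentiation and proliferation groups, against 0.141 and 0.148 in the control ones. Benjamini-Hochberg adjustment ran over all 15660 tested genes in each of 5 comparisons. The fit was tested on simulated data, where it made more false calls than its threshold allows between media in Atrx-deleted lines, a comparison with no called kinesin. Values in every library are given for members called in any comparison and for the 3 most abundant of each role, and other members are named where the text says they were singled out. Members, lists and tests were chosen with earlier results of these data known. Same-named libraries come from the same line: their deviations from the group means correlated at 0.159 (mA16d#4), 0.404 (mA19d#4), -0.194 (mA19d#7) and 0.0624 (both control lines). Gene positions are from GENCODE M21, on GRCm38, and promoter windows from RefSeq. Alternatives were other pseudocounts and filters, other scalings, no trend, only the compared groups, line blocks, and leaving out each library or line in turn. Tables and figures were made with Python 3.11.15.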

Additional observations from a re-analysis of the deposited data

How the results depend on the processing

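Kinesin call counts, role medians and the kinesins named were recomputed under 10 or 11 other settings and 15 leave-one-out fits. Levels, sums and gaps per library involve no fit and were not recomputed. No called kinesin changed sign. Medians near 0 did: between genotypes in proliferation medium, left-out fits gave -0.275 to 0.462 for mitotic genes, and the transport median between media in Atrx-deleted lines ranged over -0.0642 to 0.0909. Kinesin calls between genotypes in differentiation medium numbered 6 as reported, 2 without a filter on low values, 3 without the trend, 0 when only the compared groups were fitted, and 0 to 9 when a library or line was left out. Calls between media in control lines numbered 11 as reported, 6 without a filter, 7 without the trend, and 0 to 15 when a library or line was left out. Left-out fits that leave 1 library in a group assume that it varies like the others. The share of all tested genes called moved too. Between genotypes in differentiation medium it was 2.89% as reported, 1.47% without a filter, 2.43% without the trend and 0.0128% with only the compared groups. Between media in control lines it was 4.51% as reported, 2.35% without a filter and 3.58% without the trend. With the line as a fixed replicate block 6 of the 11 kinesins were called between media in control lines (3.11% of all genes). As a random block it gave 12 (5.28%). The random block left 6 calls between genotypes in differentiation medium (2.92% of all genes), where a fixed block could not be fitted. The other counts stayed at 0. Counts were 0 in every setting for genotypes in proliferation medium, media in Atrx-deleted lines and the difference of responses. A pseudocount of 4 moved the mitotic median between genotypes in differentiation medium to 1.24 and that between media in control lines to -1.56. Over left-out libraries and lines the mitotic median ranged over 1.39 to 1.98 between genotypes in differentiation medium, -2.46 to -1.51 between media in control lines and -0.796 to -0.0689 in Atrx-deleted lines. The transport median ranged over -0.11 to 0.12 between genotypes in proliferation medium, -0.282 to -0.0829 in differentiation medium and -0.382 to -0.0142 for the difference of responses. Recounting the lists was chosen after seeing the data: when a library or line was left out, called spindle partners numbered 0 to 16 both between genotypes in differentiation medium and between media in control lines, and called cycling markers 0 to 6 in both. The cause of these moves was not tested. Depth is unknown, so low genes such as Kif5a and Kif5c carry an error that cannot be stated.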
